A study of Mus musculus with 8 samples.

Results

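ER-phagy receptors are the proteins that select stretches of endoplasmic reticulum (ER) for autophagy, and 9 genes of this class were followed through a fast in mouse muscle. They were Retreg1, its paralogs Retreg2 and Retreg3, Sec62, Rtn3, Calcoco1, Tex264, Atl3 and Ccpg1, 9 of 14860 genes named on the arrays. Each was taken by its platform gene symbol, and each had 1 transcript cluster (the group of probes summarised into 1 value) that carried its symbol alone. A further cluster carried the symbols of Ccpg1 and another gene together and was not used. The set was assembled around Retreg1 because its rise was the largest among all clusters, so its difference is described here without a test. The other 8 were chosen by their known role.

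RNA came from the tibialis anterior, the muscle along the shin, of male mice aged 8 weeks. One group was fed ad libitum and the other was fasted for 24 h; the labels name no strain and no other treatment. The experiment was performed 4 times, each time with RNA of 3 mice per group pooled for 1 exon array, which gave 4 fed and 4 fasted pools. Values are log2 expression levels, so a difference of 1 is a 2-fold change, and ± denotes the SD of 4 pools for levels and the moderated standard error for differences. A pool hides the spread between single mice, and in whole muscle a change in RNA per cell and a change in the cells present cannot be told apart.

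Each ER-phagy receptor holds a short motif that binds proteins of the Atg8 family (the LC3 and GABARAP proteins) on the growing autophagosome, and so tethers a piece of ER to it. Most of them are ER membrane proteins. Retreg1, also known as FAM134B, carries a reticulon-like domain that bends the membrane, and its loss in humans causes a sensory and autonomic neuropathy. In muscle the ER includes the sarcoplasmic reticulum, which stores the calcium for contraction.

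The annotation of Retreg1 sets it apart from the other receptor genes before any level is considered, and its promoters are shown because the array value does not separate its transcripts. RefSeq (GRCm38.p6) lists 4 transcription starts for Retreg1 on the plus strand of chromosome 15. The starts after the first lie 90.3, 97.4 and 99.4 kb downstream of it. Tex264 has 2 starts 136 bases apart, and the other 7 genes have 1 each. Of 27025 genes in the RefSeq promoter table, 1.26% have 4 or more. All 9 genes matched the table, whose windows run from 250 bases before a start to 50 after it. The 4 windows of Retreg1 follow 5′ to 3′, with that of Retreg2 (plus strand) for comparison. Capitals mark matches, on either strand, to the forkhead core GTAAACA or its form GCAAACA, which FoxO factors can bind, and to the E-box CACGTG, which TFEB and related factors can bind. The motifs were chosen with the sequences in view.
Retreg1 start 1, chr15:25843048-25843347: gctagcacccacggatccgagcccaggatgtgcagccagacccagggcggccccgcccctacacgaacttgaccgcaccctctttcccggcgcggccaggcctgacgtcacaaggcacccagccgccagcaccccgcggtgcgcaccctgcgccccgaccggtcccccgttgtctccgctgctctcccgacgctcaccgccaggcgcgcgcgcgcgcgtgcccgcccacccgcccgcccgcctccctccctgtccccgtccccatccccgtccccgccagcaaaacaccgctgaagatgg
Retreg1 start 2, chr15:25933302-25933601: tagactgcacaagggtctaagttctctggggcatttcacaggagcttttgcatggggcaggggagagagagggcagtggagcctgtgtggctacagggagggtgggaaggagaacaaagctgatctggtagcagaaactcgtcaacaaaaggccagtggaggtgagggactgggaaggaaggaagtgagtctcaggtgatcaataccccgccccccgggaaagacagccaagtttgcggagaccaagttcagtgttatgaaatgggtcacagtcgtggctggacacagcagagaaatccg
Retreg1 start 3, chr15:25940452-25940751: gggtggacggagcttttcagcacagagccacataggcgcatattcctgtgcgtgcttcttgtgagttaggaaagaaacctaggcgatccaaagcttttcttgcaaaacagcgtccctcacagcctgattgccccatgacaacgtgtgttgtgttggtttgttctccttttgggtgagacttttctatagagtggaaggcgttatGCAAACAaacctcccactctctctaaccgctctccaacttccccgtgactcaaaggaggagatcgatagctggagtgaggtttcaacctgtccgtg
Retreg1 start 4, chr15:25942429-25942728: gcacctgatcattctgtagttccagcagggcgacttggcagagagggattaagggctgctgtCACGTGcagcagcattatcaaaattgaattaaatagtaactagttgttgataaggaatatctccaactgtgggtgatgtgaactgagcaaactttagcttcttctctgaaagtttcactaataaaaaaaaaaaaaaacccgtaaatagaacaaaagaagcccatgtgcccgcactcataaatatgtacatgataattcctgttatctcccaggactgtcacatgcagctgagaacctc
Retreg2, chr1:75142536-75142835: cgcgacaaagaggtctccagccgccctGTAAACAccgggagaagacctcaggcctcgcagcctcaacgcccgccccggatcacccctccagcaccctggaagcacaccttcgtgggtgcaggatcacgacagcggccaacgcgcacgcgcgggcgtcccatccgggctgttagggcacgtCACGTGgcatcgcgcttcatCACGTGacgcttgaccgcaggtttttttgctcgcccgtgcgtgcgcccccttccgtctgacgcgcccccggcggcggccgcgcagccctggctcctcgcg

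The windows of the first and second Retreg1 starts held none of the 3 motifs. The third held GCAAACA beginning 46 bases before the start, and the fourth held CACGTG beginning 188 bases before it. The Retreg2 window held GTAAACA once and CACGTG at 2 places, and the Sec62 window held CACGTG once. None of the remaining windows of the 9 genes had a match, and no matches overlapped. Among all 32851 windows of this length, 3.65% held GTAAACA, 5.07% held GCAAACA and 7.15% held CACGTG. A match is a run of letters and not a known binding site. The array gave 1 value for Retreg1, so which of the 4 starts the transcripts came from was not measured.

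Retreg1 mRNA was far higher in every fasted pool than in any fed pool. Its log2 level (transcript cluster 6829281) was 6.56, 6.97, 7.12 and 7.32 in the fed pools of experiments 1 to 4, and 9.45, 9.31, 8.92 and 9.38 in the matching fasted pools. The lowest fasted pool lay 1.60 above the highest fed pool. The paired difference was 2.89, 2.34, 1.80 and 2.06 on the log2 scale, or 7.39-fold, 5.05-fold, 3.47-fold and 4.16-fold. The mean difference was 2.27 ± 0.17, a 4.82-fold higher level, and it ranked first of 16755 clusters. Experiment 1 combined the lowest fed level with the highest fasted level of the 4 and so gave the largest difference. Experiment 3 gave the smallest, through the lowest fasted level.

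None of the other 8 receptors passed the threshold of an adjusted p under 0.05. Over the whole array, limma's paired test gave 137 of 16755 clusters (0.818%) an adjusted p under 0.05, 89 of them higher (0.531% of all) and 48 lower (0.286%). At the share of 0.818%, few or none of 8 genes would be expected to pass. The 8 had adjusted p from 0.373 to 0.949. Retreg1 is among the 137 and the 89 higher, but it was chosen from this contrast, so its own call is not read as a result. It was the only receptor whose fasted pools all lay above its fed pools, an arrangement seen in 3.55% of all clusters. Its choice for the largest rise made this arrangement likely, so it is a description only. The plot of receptor levels by pool shows this separation for Retreg1 and overlapping groups for the other 8.

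**Figure D1:**
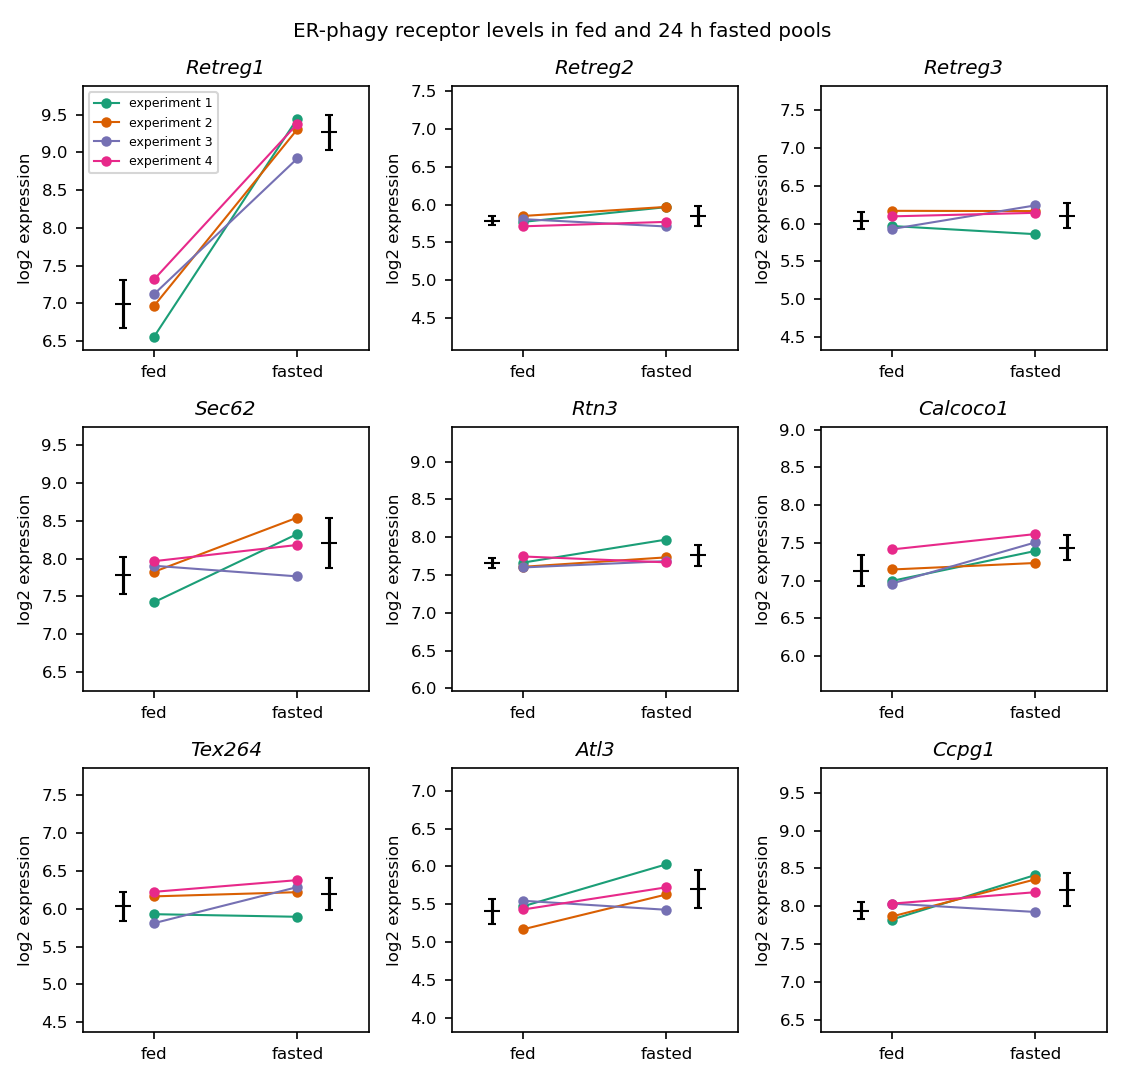
Log2 expression of the 9 ER-phagy receptor genes in the fed and 24 h fasted pools; each coloured line joins the fed and fasted pool of 1 experiment, bars give mean ± SD of 4 pools, and every panel spans the same log2 range. Retreg1 rises from 6.99 ± 0.32 to 9.26 ± 0.24 without overlap, and the groups overlap in the other 8 panels.

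The closest relatives of Retreg1 differed little in measured level between fed and fasted muscle. Retreg2 and Retreg3 carry the same reticulon-like domain and also act in ER-phagy. Retreg2 stood at 5.77, 5.85, 5.81 and 5.71 in the fed pools and at 5.97, 5.97, 5.71 and 5.77 in the fasted pools of experiments 1 to 4. The difference was 0.07 ± 0.11 (adjusted p = 0.931), with a 95% interval from 0.886-fold to 1.24-fold. Retreg3 stood at 5.97, 6.17, 5.93 and 6.10 in the fed and at 5.86, 6.17, 6.24 and 6.14 in the fasted pools. Its difference was 0.06 ± 0.11 (adjusted p = 0.949), with an interval from 0.871-fold to 1.25-fold. Both intervals, which are those of a mean, ended below the 3.47-fold difference of Retreg1 in its smallest single experiment. The choice of Retreg1 for the largest rise made this likely, so it is a description only. The fed pools of Retreg2 were tightly grouped, with an SD of 0.06 against 0.32 for Retreg1. RMA, which made the array values, compresses differences at low signal, and no detection calls were available. Whether low signal narrowed the differences, intervals and SD of these relatives was not tested. Retreg2 and Retreg3 stayed in the fit without the clusters of lowest mean level (adjusted p = 0.884 and 0.910). The same limit applies to Atl3 and Tex264 below.

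Other receptors shape or fuse ER tubules. Rtn3, a reticulon whose long form drives the breakdown of tubules, measured 7.66, 7.61, 7.60 and 7.75 in the fed pools and 7.97, 7.73, 7.68 and 7.67 in the fasted pools. The groups overlapped, and the difference was 0.11 ± 0.11 (adjusted p = 0.849, interval 0.905-fold to 1.29-fold). Atl3, a membrane-fusing GTPase of the atlastin family that binds GABARAP proteins, measured 5.47, 5.17, 5.55 and 5.43 when fed and 6.03, 5.63, 5.43 and 5.72 when fasted. It was higher in 3 of 4 fasted pools than in the matching fed pool, with a difference of 0.30 ± 0.13 (adjusted p = 0.486, interval 0.990-fold to 1.53-fold).

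Sec62 and Ccpg1 link ER-phagy to protein folding in the ER. Sec62 belongs to the translocon that moves new proteins into the ER, and it directs the removal of excess ER after stress. Its level was 7.42, 7.83, 7.91 and 7.97 in the fed and 8.33, 8.54, 7.77 and 8.18 in the fasted pools. The difference, 0.42 ± 0.18, was the largest among the 8, but it ran from 0.90 in experiment 1 to -0.14 in experiment 3 and did not pass (adjusted p = 0.434, interval 1.01-fold to 1.78-fold). Ccpg1, a receptor that the unfolded protein response can induce, was at 7.82, 7.87, 8.03 and 8.04 in the fed and at 8.41, 8.36, 7.92 and 8.19 in the fasted pools. Its difference was 0.28 ± 0.14 (adjusted p = 0.543, interval 0.971-fold to 1.52-fold), again positive in experiments 1, 2 and 4 and below 0 in experiment 3.

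Calcoco1 and Tex264 complete the set. Calcoco1 is a soluble receptor that reaches the ER through VAP proteins. It stood at 7.00, 7.15, 6.96 and 7.41 in the fed pools and 7.39, 7.23, 7.51 and 7.62 in the fasted pools. It was the only one of the 8 with a positive difference in all 4 experiments, as 8.61% of all clusters had. The mean was 0.31 ± 0.12 (adjusted p = 0.373, interval 1.03-fold to 1.49-fold). Tex264, a single-pass ER protein that is a major receptor in starved cultured cells, stood at 5.93, 6.16, 5.81 and 6.22 when fed and 5.89, 6.22, 6.29 and 6.38 when fasted. The difference was 0.16 ± 0.12 (adjusted p = 0.749, interval 0.924-fold to 1.36-fold).

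As a group, the 8 receptors other than Retreg1 had small differences of one sign. All 8 mean differences lay above 0, where 45.6% of all clusters did, and their median was 0.22 against -0.02 over all clusters. Before adjustment, Sec62 and Calcoco1 had p under 0.05, as did 5.15% of all clusters in the higher direction; neither passed after it. These counts describe genes chosen with earlier results known and were not tested as a list. The median of the 8 was 0.35, 0.12, -0.01 and 0.15 in experiments 1 to 4. Retreg1 was chosen for the largest rise of all clusters, so its mean difference had to exceed those of the 8. The gap between Retreg1 and any of the 8 was at least 1.25 on the log2 scale in every experiment, the smallest being that to Calcoco1 in experiment 3. It was most even against Sec62, at 1.98, 1.62, 1.94 and 1.84.

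**Figure D2:**
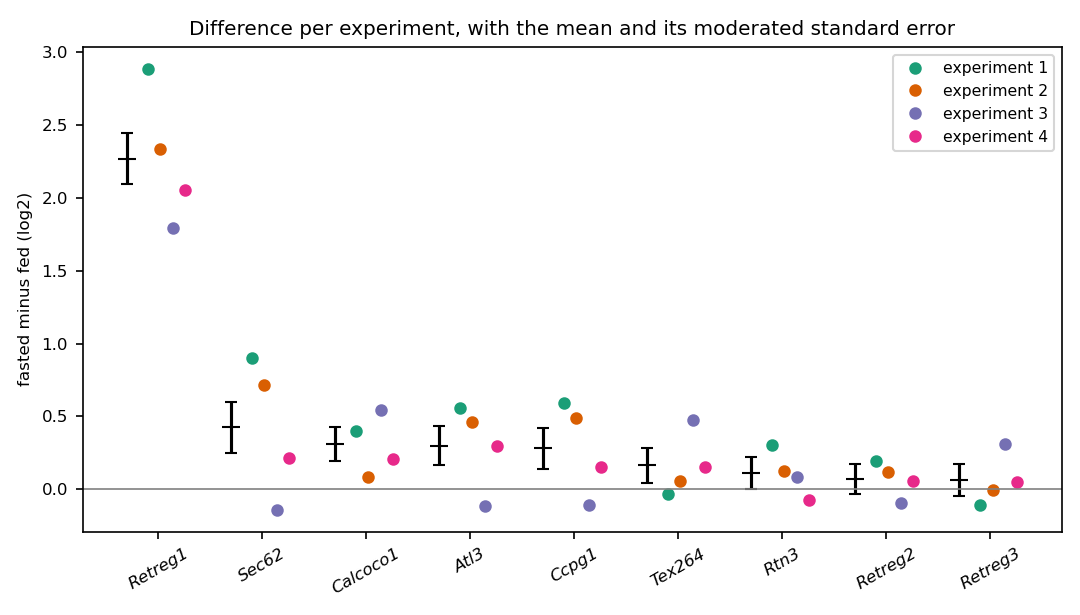
Fasted minus fed difference (log2) of each receptor gene, 1 coloured point per experiment, with the mean and its moderated standard error in black. Retreg1 lies between 1.80 and 2.89, and all points of the other 8 lie between -0.14 and 0.90.

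The receptors fell into different orders over the experiments. Retreg1, Retreg2, Sec62, Atl3 and Ccpg1 had their differences in the same order, largest in experiment 1, then 2, 4 and 3. That order was also held by 9.92% of all clusters. Retreg3 and Tex264 had exactly the opposite order, which 13.4% of all clusters held. Both orders were therefore common on these arrays, and no order was tested. The SD of the difference over experiments was 0.47 for Retreg1 and 0.48 for Sec62, against a median of 0.24 over all clusters.

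A comparison that the choice of these genes did not use is that between the 4 experiments, with fasting as a term in the same fit. By limma's F test, 0 of 16755 clusters (0%) reached an adjusted p under 0.05, and 1067 (6.37%) had an unadjusted p under 0.05. At that share few or none of 9 genes would be expected, and none of the 9 receptors was among them. Their unadjusted p ran from 0.193 for Tex264 to 0.872 for Ccpg1, with adjusted p from 0.851 to 0.975.

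The fasted minus fed fit, which called 0.818% of all clusters, was then read for the genes that receptors work with. Among the 5 Atg8 family genes, which encode the proteins that receptors bind, Gabarapl1 rose and none fell. Gabarapl1 measured 7.76, 7.72, 7.57 and 7.79 in the fed and 9.14, 8.91, 8.53 and 8.99 in the fasted pools, a difference of 1.18 ± 0.11 (adjusted p = 0.00699). The groups did not overlap, and experiment 1 again gave the largest difference. Map1lc3b, which encodes LC3B, was at 0.46 ± 0.13 (adjusted p = 0.220), and Map1lc3a at 0.08 ± 0.11 (adjusted p = 0.922). The family median was 0.08. The call of Gabarapl1 ended when experiment 1 was left out (adjusted p = 0.0522).

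Of 9 measured autophagy initiation genes, 1 was called higher and none lower, with a list median of 0.23. It was Atg13, a subunit of the ULK1 kinase complex, at 6.45, 6.45, 6.52 and 6.82 in the fed and 7.40, 7.05, 7.01 and 7.54 in the fasted pools (0.69 ± 0.12, adjusted p = 0.0490). That call sat at the threshold and ended without any 1 of the 4 experiments (adjusted p from 0.0561 to 0.205), without the experiment block (0.0510) and after centring each array on its median (0.0983). Ulk1, which encodes the kinase of that complex, was close to it at 0.64 ± 0.11 (adjusted p = 0.0568). It passed in 4 of the 11 alternative limma settings, and its groups did not overlap. Of the 9 genes, 6 lay above 0 and 3 below. Of 13 measured receptors for other cargo, such as mitochondria, aggregates and glycogen, none passed, where 0.818% of all clusters did. The list median was 0.23. The aggregate receptor gene Sqstm1 was at 0.63 ± 0.12 (adjusted p = 0.0620). Its adjusted p ran from 0.0260 to 0.196 over the 11 alternatives, 5 of which called it. Nufip1, proposed as a receptor for ribosomes, was at 0.53 ± 0.11 (adjusted p = 0.0852, passing in 2 of 11), and the glycogen receptor gene Stbd1 at -0.59 ± 0.16 (adjusted p = 0.197). The median of 0.23 for these receptors and that of 0.22 for the 8 ER-phagy receptors were thus close in value; the difference between the lists was not tested.

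Genes of the ER itself showed no call in any of 4 lists, where 0.818% of all clusters were called. At that share, lists of this size would be expected to hold few calls or none. None of 12 measured partners of the receptors and of the UFM1 conjugation system passed (median -0.05), among them the UFM1 enzyme genes Ufc1 (-0.42 ± 0.16, adjusted p = 0.386) and Ufl1 (0.29 ± 0.17, adjusted p = 0.636) and the UFM1-dependent Cdk5rap3 (-0.26 ± 0.13, adjusted p = 0.523). None of 14 ER-shaping genes passed (median -0.04), and the ribosome-binding sheet protein gene Rrbp1 had the smallest adjusted p, at -0.39 ± 0.10 (0.185). Next were Tmem33 at 0.20 ± 0.11 (adjusted p = 0.615) and the reticulon gene Rtn2 at -0.18 ± 0.13 (adjusted p = 0.746). Of 13 measured translocon and signal recognition genes, the partners of Sec62, 10 lay below 0, with a median of -0.14 and no gene past the test. The signal recognition receptor gene Srpr was at -0.44 ± 0.14 (adjusted p = 0.280), Srp9 at -0.33 ± 0.12 (adjusted p = 0.327) and Ssr2 at -0.28 ± 0.12 (adjusted p = 0.469). Of 23 measured genes of the unfolded protein response, which can induce Ccpg1, none passed and the median was -0.01; 1 or 2 passed in 7 of 11 alternative limma settings.

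Within that last list, the ER co-chaperone gene Dnajb9 moved furthest, from 7.38, 7.61, 7.75 and 7.97 in the fed to 9.03, 8.71, 8.14 and 8.82 in the fasted pools. Its groups did not overlap, and the difference of 1.00 ± 0.19 had an adjusted p of 0.0698. Dnajb9 passed in 7 of the 11 alternatives (adjusted p from 0.0206 to 0.252 over the 11). Edem1, of ER-associated degradation, was at 0.55 ± 0.10 (adjusted p = 0.0710, passing in 5 of 11), and Ddit3, which encodes the stress factor CHOP, at -0.44 ± 0.11 (adjusted p = 0.178). The plot of related gene lists sets these differences beside those of the receptors. Across the 8 sets drawn, Retreg1 lay highest, as its choice required, followed by Gabarapl1 and Dnajb9.

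**Figure D3:**
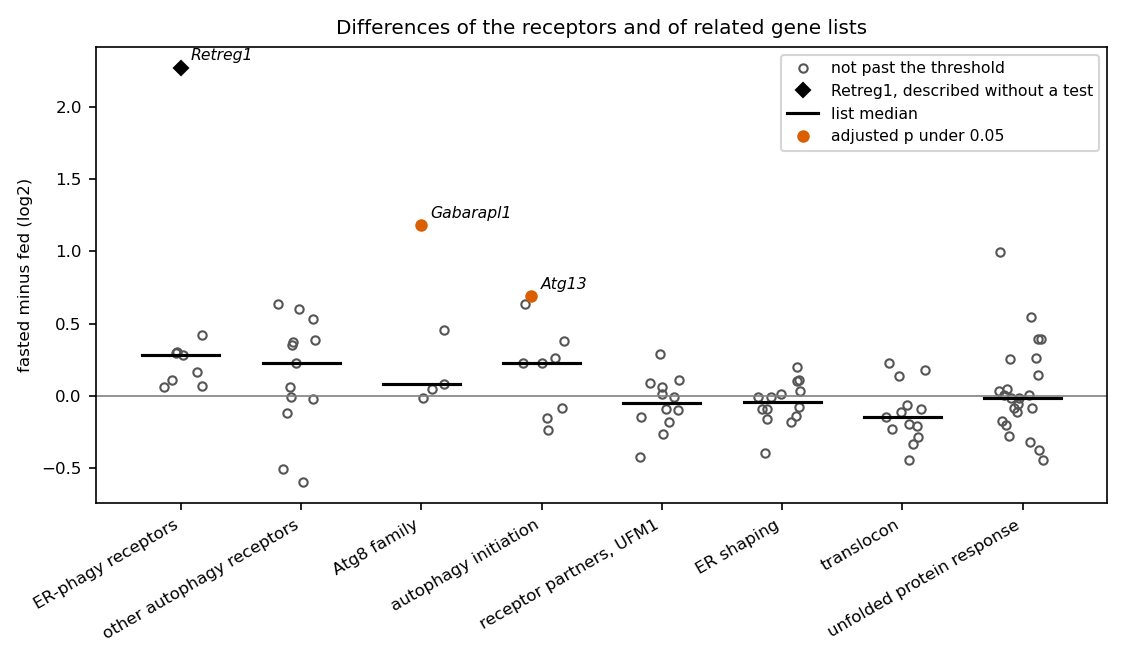
Fasted minus fed difference (log2) of each measured gene in the receptor set and in 7 related lists; the black diamond is Retreg1, described without a test, filled circles have an adjusted p under 0.05 over all 16755 clusters, open circles do not, and black lines are list medians, with Retreg1 included in the first (points are spread sideways only to be seen). Retreg1 lies at 2.27, and the filled circles are Gabarapl1 at 1.18 and Atg13 at 0.69.

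The genes whose levels over the 8 arrays followed Retreg1 most closely were Clip1, Napb, Dusp18, Fbxo32 and Klhl7, with Pearson r of 0.993, 0.990, 0.990, 0.989 and 0.988 among 14859 genes. Clip1 encodes a microtubule plus-end protein, Napb a SNAP protein of vesicle fusion, Dusp18 a dual-specificity phosphatase, Fbxo32 the muscle ubiquitin ligase atrogin-1 and Klhl7 an adaptor of a cullin ubiquitin ligase. All of these arrays share the fed and fasted contrast, which sets most of such an r. Genes picked by it tend to differ on that contrast, so their calls below follow in part from the choice. After the group means were removed, r was 0.936 for Clip1, 0.942 for Dusp18 and 0.920 for Klhl7, and lower for Napb at 0.782 and Fbxo32 at 0.726. These values come from the same arrays as the pick, so they too follow in part from the choice. Clip1 was at 1.06 ± 0.15 (adjusted p = 0.0270), Napb at 0.99 ± 0.12 (0.0159), Dusp18 at 0.90 ± 0.12 (0.0268) and Fbxo32 at 2.13 ± 0.13 (0.00084). Klhl7 did not pass, at 0.53 ± 0.11 (adjusted p = 0.100), and passed in 4 of the 11 alternative settings. The calls of Clip1 and Dusp18 ended without experiment 1, 2 or 4 (adjusted p from 0.0737 to 0.127) and after median centring (0.0760 and 0.0739), and that of Napb without experiment 1, 2 or 4 (0.0589 to 0.0737). Fbxo32 passed in all 11 alternative limma settings.

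The lowest r were those of Ptx3, Mlec, Klf7, Tmc7 and Lrtm1, from -0.971 to -0.958. Ptx3 encodes a secreted pentraxin, Mlec the ER lectin malectin, Klf7 a transcription factor, and Tmc7 and Lrtm1 membrane proteins. These genes were likewise picked by r, so their lower fasted levels follow in part from that choice. None of the 5 passed with the block; their differences ran from -0.58 ± 0.10 for Lrtm1 (adjusted p = 0.0568) to -0.43 ± 0.10 for Tmc7 (adjusted p = 0.132). Among the 11 alternative settings, Lrtm1 passed in 5, Ptx3 in 4, Mlec in 3, Tmc7 in 1 and Klf7 in 0. Mlec stood at 8.22 ± 0.07 in fed and 7.71 ± 0.06 in fasted muscle. Once group means were removed, r lay between -0.538 and -0.083, again on the arrays used for the pick. Among the other receptors, r with Retreg1 ran from 0.193 for Retreg3 to 0.789 for Ccpg1, and the latter ranked 536 of 14859.

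**Figure D4:**
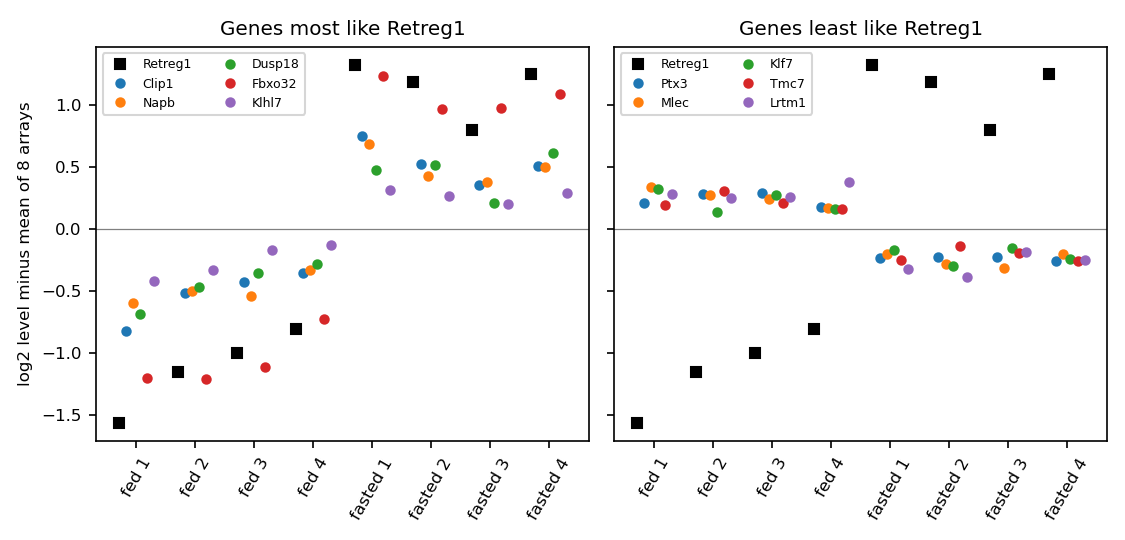
Log2 level minus the gene's mean over the 8 arrays, for Retreg1 (black squares) and the 5 genes with the highest (left) and lowest (right) Pearson r with it; each column is 1 array and pools of a group have no order. Fbxo32 comes closest to Retreg1 in size, and the genes with the lowest r mirror the separation of the groups at a smaller size, with differences between -0.58 and -0.43.

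The muscle identity of the arrays and the presence of other cells were checked with marker genes. The 7 measured fast muscle fibre markers included Ckm, Mylpf and Acta1 (differences of -0.14, -0.13 and -0.05), none passed, and their summed level (log2 of summed unlogged values) was 14.6 to 14.9 in fed and 14.6 to 14.8 in fasted pools. Retreg1 is also known in sensory neurons. The 8 measured neuron and Schwann cell markers had no call and summed levels of 9.09 to 9.32 in fed and 9.01 to 9.30 in fasted pools; Uchl1, Prph and Pmp22 were at 0.27, -0.15 and -0.13. Of 7 measured adipocyte markers 1 rose, Plin4 (0.68 ± 0.10, adjusted p = 0.0330), a call that ended without any 1 of the 4 experiments (adjusted p from 0.0631 to 0.157) and after median centring (0.0545). The summed level of these 7 markers was 9.17 to 9.46 in fed and 9.50 to 9.59 in fasted pools, without overlap. Such a sum gives most weight to the markers of highest mean level, here Fabp4 and Plin4. Of the 7 markers, 4 lay above 0 and 3 below, with Retn at -0.26, Plin1 at -0.04, Cidec at 0.02 and Lep at 0.19. Fabp4 went from 7.48 ± 0.11 to 7.87 ± 0.08 (0.38 ± 0.11, adjusted p = 0.235), higher in 4 of 4 experiments and without overlap, and Adipoq from 6.29 ± 0.54 to 6.19 ± 0.34. The 8 measured macrophage and endothelial markers had no call and sums of 9.79 to 10.04 in fed and 9.81 to 10.18 in fasted pools; Kdr, Pecam1 and Cd68 were at -0.48, 0.34 and 0.27. The part of these cells in the Retreg1 difference was not tested. Over all clusters 0.818% were called, so marker lists this small would be expected to hold few calls or none. The deposited table has no detection calls, so no marker is called absent.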

How the data were processed

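Mouse exon arrays of 8 pooled RNA samples were analysed. SPIA amplification gave biotin-labelled cDNA, per the labels' protocols. The authors deposited log2 values, 1 per transcript cluster, made with RMA per the submitters' processing notes; its version and probe class were not given in the sources used here, and the log2 base was inferred from the values (1.08 to 13.3). RMA compresses differences at low signal. Scanner files were not used here.

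The table held 16755 clusters, of which 14996 had 1 gene symbol in the platform annotation, 1019 several and 740 none. A gene was represented by its cluster of highest mean. Levels of different genes are not compared, since their probes differ. Array correlations were 0.957 to 0.980, and the number of arrays limits the precision.

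The model (limma 3.58.1, R 4.3.3) used lmFit and eBayes with experiment as a fixed block, since the series description sets each fasted pool against the fed pool of its experiment. Deviations of paired arrays from their group means correlated at -0.18, 0.05, -0.14 and 0.44. P-values were adjusted by Benjamini-Hochberg over all clusters (threshold 0.05, two-sided). Nothing states whether the mice of different experiments differed in litter or date. The fit was tested on simulated data. The members, gene lists and alternatives were chosen with earlier results of these data known. Named genes were all 9 receptors, the genes of each list past the threshold or else its 3 smallest adjusted p, and the 5 genes of highest and of lowest Pearson r with Retreg1. Map1lc3a, Map1lc3b, Ulk1, Fabp4 and Adipoq were named after their values were seen. Alternatives were no block, a random block, quantile normalization, median centring, a filter on the lowest 25% by mean level, a trended robust prior, array weights, leaving out each experiment, and unlogged means.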

Additional observations from a re-analysis of the deposited data

How the results depend on the processing

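The difference of Retreg1 was 2.06 to 2.43 over the 11 alternative limma settings, values that carry no test since the gene was chosen on this contrast. The ratio of unlogged means gave 2.26. None of the other 8 receptors passed in any of the 11, where few or none of 8 genes would be expected to. Their lowest adjusted p was 0.159, for Sec62. The median of the 8 ranged from 0.18 to 0.24, and from 0.18 to 0.24 when an experiment was left out. The difference of Retreg3, 0.06, ran from -0.02 to 0.12 when an experiment was left out and changed sign without experiment 3 (-0.022); the cause was not tested. The count of called clusters, 137 with experiment as a block, was 185 without the replicate block, 229 with experiment as a random block, 45 after median centring, 265 with array weights, 240 without the lowest 25% by mean level and 216 under a trended robust prior. Leaving out 1 experiment gave 16 without experiment 1, 37 without experiment 2, 94 without experiment 3 and 31 without experiment 4. Each of these fits had the same smaller number of arrays, and the cause of the spread in counts was not tested. The count for differences between experiments was read under 2 alternatives only, median centring and the filter on the lowest 25%, and was 0 in each. Among the related lists, the unfolded protein response had 0 to 2 genes called over the 11 settings, receptors for other cargo 0 to 2, autophagy initiation 0 to 2 and the Atg8 family 0 to 1. Clusters of a gene other than the highest-mean one could not be tried, as each receptor had a single cluster of its own. Dropping the block changed no call among the receptors.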
